A study of Mus musculus with 2 samples.

Results

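The cells described here are monocyte-like leukocytes found in a library sorted as tumor endothelial cells from EO771 mouse mammary tumors. They were selected by transcript counts alone: at least 10 UMIs of Lyz2, at least 2 UMIs over Csf1r, Cd68 and Adgre1 together, 0 UMIs of Cd3e, Cd3d and Cd3g, at most 4 of Rhox5, at most 1 over Flt3, Cd209a, Xcr1 and Clec9a, and at most 9 over C1qa, C1qb and C1qc. A UMI (unique molecular identifier) marks 1 captured RNA molecule. The rule took 346 of the 1000 deposited cells of the tumor library (34.6%, exact 95% binomial interval 31.7 to 37.6). Both libraries together have 2806 deposited cells. Whether these are all the cells that were sorted is not stated, so the share is of the deposited cells only. They are called C1q-low cells below. The genes of the rule set who belongs, so their levels are not results.

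Both groups came from female C57BL6/J mice aged 8 weeks with the genotype Cdh5Cre-ERT2:ZSGreenl/s/l, which had received tamoxifen so that ZSGreen was switched on by Cre recombinase under the promoter of the endothelial cadherin gene Cdh5. EO771 is a mouse mammary tumor line syngeneic to this strain. It was placed in the mammary fat pad and left to grow for about 3 weeks, and the labels name the tumors the source of the TEC library (tumor endothelial cells) and normal mammary glands the source of the NEC library (normal endothelial cells). Tissue was digested with collagenase, dispase and DNAse, live ZSGreen-positive cells were collected by flow cytometry, and 10X single-cell 3′ libraries were made. Each group is 1 library, the labels do not say how many mice each holds, and animal, tissue and library cannot be told apart. No test between groups was possible, and every interval given covers counting error only.

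Monocytes are made in bone marrow and circulate as a classical subset, which carries Ly6C and the chemokine receptor CCR2 and enters inflamed tissue and tumors, and as a patrolling subset, which crawls along vessel walls and depends on the transcription factor NR4A1. Classical monocytes that settle in tumors can become macrophages, which switch on complement C1q, APOE and lysosomal genes, or antigen-presenting cells rich in MHC class II. Type I interferon is a strong inducer of a shared antiviral gene program in monocytes.

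The label "endothelial" and the contents of these cells differed. Of 12 endothelial marker genes in the table, Tek and Cldn5 had 0 UMIs in the C1q-low cells, and all 12 together reached 79.1 CPM (the UMIs of a gene over all UMIs, summed over the cells of a group and scaled to a fixed library size). Markers of B cells (11.2 CPM), fibroblasts (6.65 CPM) and epithelial cells (14.7 CPM) were also near 0. T and natural killer cell markers summed to 161 CPM, of which the receptor gene Klrk1 alone gave 129.5 CPM. Neutrophil markers summed to 950.2 CPM and dendritic cell markers to 359 CPM. The T cell sum holds Cd3e, Cd3d and Cd3g, which the rule set to 0. The dendritic sum holds Flt3, Cd209a, Xcr1 and Clec9a, which the rule kept to at most 1 UMI per cell. Both sums are thus partly set by the selection. A few cells, described at the end, held most UMIs of the neutrophil genes S100a8, S100a9 and Retnlg and of the dendritic genes Ccr7, Fscn1 and Ccl22. The monocyte genes Ly6c2, Ms4a4c and Plac8, which the rule did not use, were found in most of the cells, so the name monocyte-like was kept.

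Depth differed between the libraries, and that limits comparison across them. The C1q-low cells held 6376 to 18541 UMIs (median 7535.5, 2856322 in all) and a median of 2045.5 genes, with a median mitochondrial share of 1.56%. The shallowest tumor cell had 6376 UMIs and the shallowest control cell 1157. The libraries shared 2 cell barcodes, none of them in a C1q-low cell. The table also holds 177 tumor cells with 5 or more Rhox5 UMIs (median 43380 UMIs) and 71 with 2 or more Cd3 UMIs and under 10 Lyz2 UMIs (median 9482 UMIs). Shares of these cells with a UMI are given beside those of the C1q-low cells, because RNA that floats free in the suspension reaches every droplet. T cells can make Ly6c2, Plac8 and Ccr2 themselves, so for these genes the Cd3 cells are no measure of free RNA alone.

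Counted in cells thinned at random to 6000 UMIs each, Ly6c2, which encodes the Ly6C antigen of classical monocytes, ranged from 0 to 103 UMIs with a median of 8, and 89.6% of C1q-low cells had at least 1. Plac8, a small cysteine-rich protein of myeloid cells, ranged from 0 to 133 with a median of 15 and was seen in 90.2%. Ms4a4c, a membrane-spanning protein of the MS4A family, ranged from 0 to 41 with a median of 4 and was seen in 87.6%. All 3 genes were thus found in nearly all of the cells, yet their levels spread over more than 1 order of magnitude. In the Rhox5 cells the shares with a UMI were 22.0% for Ly6c2, 32.2% for Plac8 and 9.04% for Ms4a4c, and in the Cd3 cells 52.1%, 64.8% and 42.3%. The medians there were 0 to 2 UMIs, so counts of a few UMIs in a C1q-low cell overlap those of the other cells.

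Ccr2, the receptor that draws monocytes out of the marrow, was seen in 57.2% of thinned C1q-low cells with a median of 1 UMI, against 0.565% of Rhox5 cells and 19.7% of Cd3 cells. Chil3, a chitinase-like secreted protein of classical monocytes, was seen in 52.9%, with a highest value of 41 UMIs, against 4.52% and 9.86%. The macrophage genes Ms4a7 and Apoe, the latter a lipid carrier, were seen in 36.4% and 43.1% of C1q-low cells with medians of 0. The most like cells were the 74 that met every clause but held 10 or more C1q UMIs (C1q-high cells). Ms4a7 was seen in 81.1% and Apoe in 67.6% of them. Ly6c2 was seen in 79.7%, Plac8 in 75.7%, Ms4a4c in 81.1%, Ccr2 in 43.2% and Chil3 in 25.7%. Most C1q-low cells thus showed monocyte transcripts and a minority showed appreciable macrophage transcripts. Having a UMI of Ly6c2, Plac8 or Ms4a4c was not particular to them, since most C1q-high cells had one too.

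**Figure D1:**
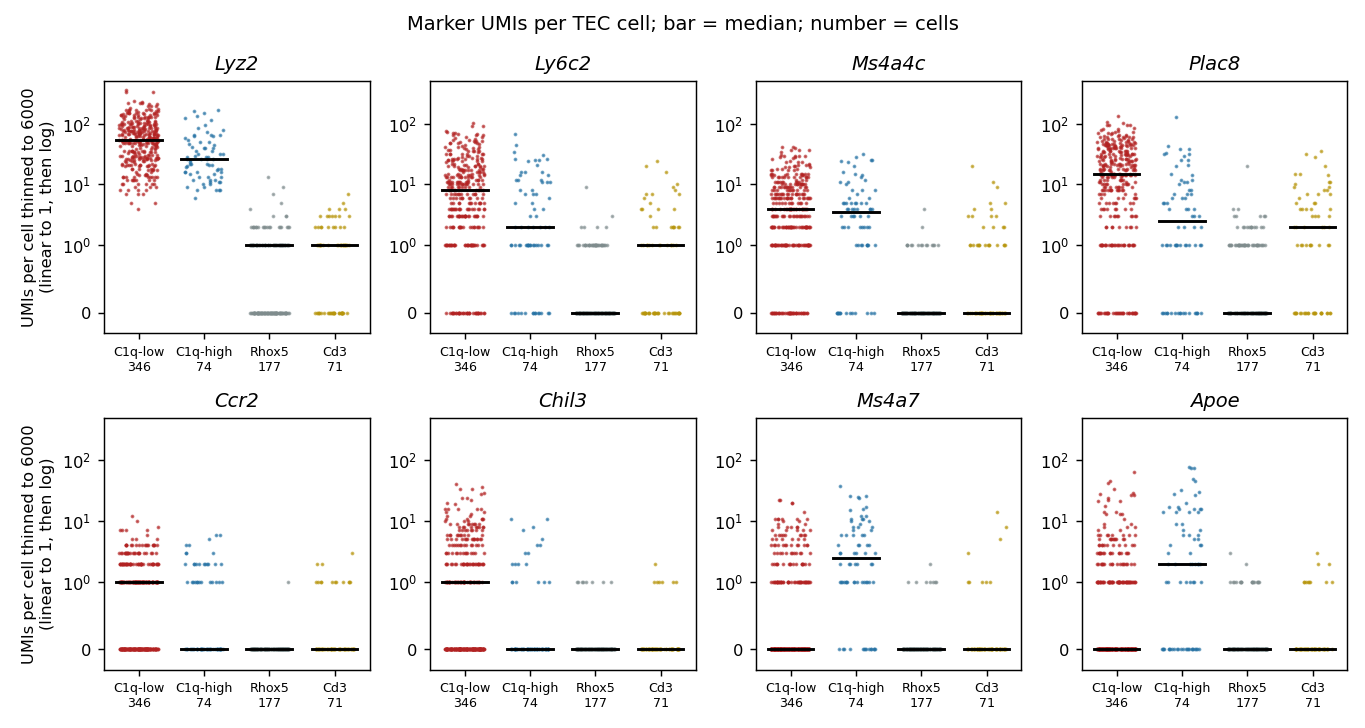
UMIs per cell, after thinning every cell to 6000 UMIs, of 8 genes in 346 C1q-low, 74 C1q-high, 177 Rhox5 and 71 Cd3 cells of the tumor library; the vertical axis is linear up to 1 and logarithmic above, each point is a cell and the bar is the median. Median Plac8 was 15 in C1q-low and 2.5 in C1q-high cells, while median Ms4a7 was 0 and 2.5.

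Per the mm10 annotation, the marker genes lie on chromosome 15 (Ly6c2, 75108158 to 75111970, minus strand), chromosome 5 (Plac8, 100553725 to 100572245, minus strand), chromosome 19 (Ms4a4c, 11404770 to 11427246, plus strand) and chromosome 10 (Lyz2, 117277331 to 117282321, minus strand). Ly6c2 and Lyz2 have close copies, Ly6c1 and Lyz1, and reads could be split between them in the authors' counting. In the C1q-low cells Ly6c1 stood at 7.002 CPM and Lyz1 at 15.4 CPM.

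Cells at the edges of the rule are described once. The 11 C1q-low cells with 5 to 9 C1q UMIs held 1330 CPM of Ly6c2, 151 CPM of Ms4a7 and 1179 CPM of Apoe, while the 17 cells just outside, with 10 to 14 C1q UMIs, held 2053 CPM of Ly6c2, 660.1 CPM of Ms4a7 and 312 CPM of Apoe. The macrophage genes Ms4a7 and Apoe thus lay in opposite directions across this limit. The 21 cells with 10 to 14 Lyz2 UMIs had 2478 CPM of Ly6c2, and the 20 cells left out with 5 to 9 had 1189 CPM. The 35 cells with 2 or 3 UMIs of Csf1r, Cd68 and Adgre1 had 2775 CPM of Ly6c2, and the 14 left out with 0 or 1 had 1145 CPM. No C1q UMI at all was present in 293 of the 346 cells and 1 UMI in another 30, so few cells sat near that limit.

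The most like cells of the same library were the 74 that met every clause but held 10 or more C1q UMIs (C1q-high cells, 707753 UMIs, median 7497 per cell). The rule itself splits these groups, so what follows is a description of that split. A gene met the size rule when it had at least 50 UMIs over both groups, a CPM ratio of at least 2 either way and an exact 95% interval of the ratio that left out 1. Of 5167 genes, 119 were higher in C1q-low cells by this rule (2.3%) and 94 lower (1.82%). The median log2 ratio of all genes was 0.00. With trimmed-mean (TMM) scaling in place of total UMIs the counts were 150 higher and 73 lower, so the higher share of these genes went from 55.9% to 67.3%, and the median moved to 0.08. The percentages are given as the background and nothing is read from them, since the rule made the split.

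Genes of classical monocytes were among the higher ones, and so were some of neutrophils and dendritic cells. Of 7 measured neutrophil genes 4 were higher and 0 lower (S100a8, S100a9, Retnlg and Lcn2, median log2 ratio 2.73). Of 6 measured dendritic cell genes 3 were higher and 0 lower (Ccr7, Fscn1 and Ccl22, median log2 ratio 1.05). All of these but Lcn2 had most of their C1q-low UMIs in a few cells, described at the end. Of 15 measured genes of a classical monocyte list (Lyz2, a gene of the rule, left out), 8 were higher and 0 lower, and the median log2 ratio was 1.04. Ly6c2 stood at 2242 CPM in C1q-low and 1054 CPM in C1q-high cells (2.13-fold, 1.97 to 2.30), and Plac8 at 3678 and 1396 CPM (2.63-fold, 2.47 to 2.81). Chil3 was 3.96-fold higher (3.19 to 4.96) and Ifitm6, an interferon-induced transmembrane gene, 3.82-fold (2.57 to 5.92). Hp, the hemoglobin scavenger haptoglobin, was 8.99-fold higher (4.97 to 18.2), at 139.7 against 15.5 CPM. The matrix proteoglycan gene Vcan was 2.97-fold higher (1.99 to 4.62) and the fibronectin gene Fn1 2.05-fold (1.57 to 2.71). The epidermal growth factor receptor ligand gene Areg (4.99-fold, 3.25 to 8.04), the neutrophil attractant gene Cxcl1 (8.30-fold, 3.17 to 30.9) and Ly6i (4.08-fold, 2.87 to 5.98) were also among the first 12 higher genes. Ms4a4c differed little (1.21-fold, 1.11 to 1.32), and so did Ccr2 (1.47-fold, 1.18 to 1.85) and Itgam, the CD11b integrin (0.953-fold, 0.794 to 1.15).

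Macrophage genes were among the lower ones. Of 13 measured genes of a C1q macrophage list, without the genes of the rule, 9 were lower and 0 higher (median log2 ratio -1.44). Apoe stood at 397 CPM against 1842 CPM in C1q-high cells (4.64-fold lower, 4.28 to 5.03), and Ms4a7 at 256 against 924 CPM (3.61-fold lower, 3.24 to 4.01). Folr2, a folate receptor of tissue-resident macrophages, was 12.96-fold lower (7.64 to 22.97) and Pltp, a phospholipid transfer protein, 5.15-fold (3.60 to 7.39). Trem2, the lipid-sensing receptor of lipid-associated macrophages, was 2.98-fold lower (2.48 to 3.58). The platelet factor chemokine Pf4 was 4.79-fold lower (4.41 to 5.20) and the growth factor gene Igf1 5.97-fold (3.50 to 10.4).

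Lipid-associated macrophage genes followed the same direction: 7 of 18 were lower and 0 higher (median log2 ratio -0.82). Of these 7, Trem2, Gpnmb and Apoe are also in the C1q macrophage list and were counted there. The lipoprotein lipase gene Lpl was 3.81-fold lower (3.13 to 4.64), the tetraspanin gene Cd63 3.19-fold (2.84 to 3.57) and the protease gene Ctsd 2.02-fold (1.86 to 2.195). Spp1, which encodes osteopontin, did not follow, at 1379 CPM in C1q-low and 906 CPM in C1q-high cells (1.52-fold, 1.40 to 1.66).

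Single cells carried several of the largest ratios of this comparison. In C1q-high cells 1 cell held 53.6% of the UMIs of the chemokine gene Ccl8 (97.7-fold lower, 72.0 to 136, in C1q-low cells), 99.3% of those of the granzyme gene Gzmc (61.7-fold, 32.7 to 131) and 49.2% of those of the platelet basic protein gene Ppbp (18.9-fold, 10.3 to 37.6). Among C1q-low cells all 216 UMIs of Ubd, a ubiquitin-like modifier, came from 1 cell. The neutrophil alarmins S100a8 (6.62-fold higher, 4.85 to 9.27) and S100a9 (7.71-fold, 4.95 to 12.7) rested largely on 8 cells, described at the end. Without those and 8 other cells that stand apart, S100a8 kept a log2 ratio of 1.34, and S100a9 had 0.55 and no longer met the size rule.

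Several programs were alike in level between C1q-low and C1q-high cells, while chemokine genes and arginase and checkpoint genes differed in part. Of 34 type I interferon response genes 0 were higher and 1 lower (Ifi44, 2.28-fold, 1.29 to 3.94), with a median log2 ratio of 0.21. Of 12 measured genes of MHC class II presentation 0 met the size rule (median log2 ratio -0.05), and H2-Ab1 stood at 2526 and 2649 CPM. Of 18 transcription factors of the lineage 0 met it, among them Spi1 (PU.1, the master factor of myeloid cells) at 453 and 419.6 CPM. Of 22 genes of Fc, Toll-like and C-type lectin receptors 1 was higher and 0 lower (median log2 ratio -0.04). Of 16 inflammatory cytokine and NF-kappaB feedback genes 1 was higher and 0 lower. Of 17 chemokine genes 1 was higher (Cxcl1) and 4 lower (Ccl7, Ccl8, Ccl24 and Pf4), beside 2.3% and 1.82% of all genes. Of 16 arginase and checkpoint genes 2 were higher, Chil3 and Arg2 (2.997-fold, 1.92 to 4.93), and 1 lower, the mannose receptor gene Mrc1 (2.29-fold, 1.73 to 3.02).

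**Figure D2:**
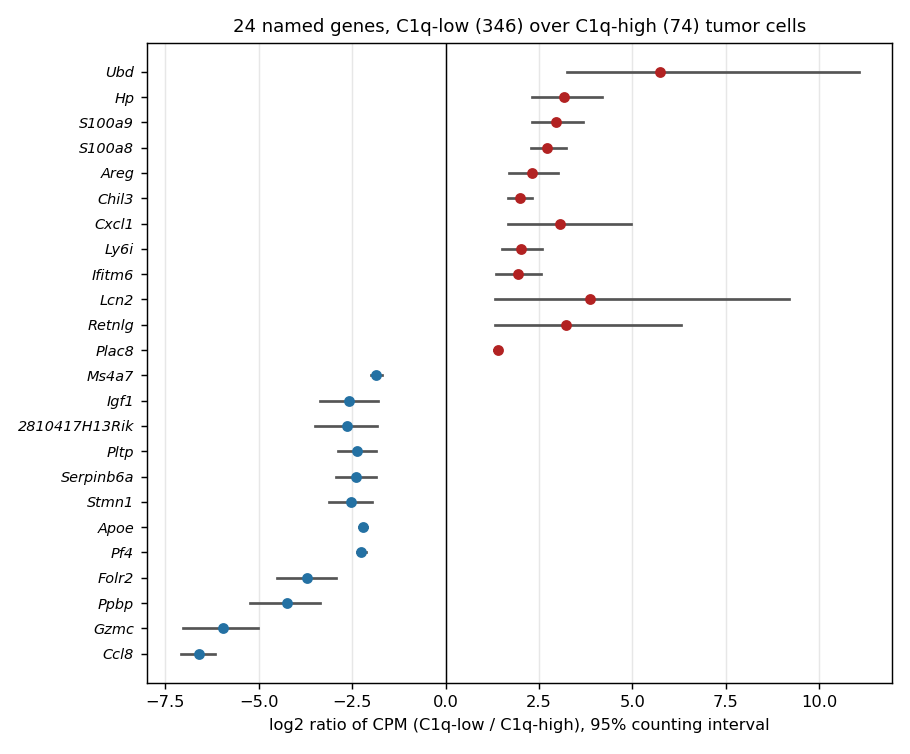
Log2 ratio of CPM in 346 C1q-low over 74 C1q-high tumor cells for 24 genes, 12 a side, ranked by the near end of the interval, genes of the rule left out; lines are 95% counting intervals. Hp, Chil3, Ifitm6 and Plac8 lie to the right, and Folr2, Pf4, Apoe and Ms4a7 to the left.

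The second comparison set the C1q-low cells against control cells with a UMI of Ace or Treml4, genes of patrolling monocytes. It asks how tumor monocyte-like cells differ from cells of normal gland with at least 1 UMI of these genes. No other marker was asked of the control cells, so they need not all be monocytes. Of 71 such control cells, 20 also held 5 or more UMIs of fibroblast genes, and with all 71 the 12 genes with the lowest ratios were led by fibroblast genes such as Dcn and Col1a1. The values below use the other 51 cells (162899 UMIs, median 2655 per cell), a choice made after these values were seen. Of these 51 cells, 28 held at least 2 UMIs of Ace or Treml4. No UMI of the T and B cell genes Cd3e, Cd3d, Cd3g, Cd79a and Ms4a1 was found in 43. Only genes with counts in both libraries were used. Of 4720 genes, 727 were higher in the tumor cells (15.4%) and 392 lower (8.31%). The median log2 ratio was 0.33, and TMM scaling moved it to 0.44. With all 71 control cells 920 of 4836 genes were higher (19%) and 491 lower (10.2%).

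Patrolling monocyte genes were lower in the C1q-low cells. Of 14 measured genes of that list 12 were lower and 0 higher, the median log2 ratio being -2.75. Ace and Treml4 are left out of this count because they chose the control cells, and genes expressed together with them are favored by that choice. Adgre4, an adhesion receptor, stood at 10.503 CPM against 233 CPM in the control cells (22.2-fold lower, 13.4 to 37.1). Itgal, the integrin with which patrolling monocytes hold on to endothelium, stood at 31.2 against 331 CPM (10.6-fold lower, 7.44 to 15.1). Pou2f2, a POU-domain factor, was 8.45-fold lower (6.22 to 11.4) and Spn, the sialophorin CD43, 8.77-fold (5.20 to 14.4). Nr4a1, the factor on which patrolling monocytes depend, was 3.04-fold lower (2.06 to 4.37). Pglyrp1, a peptidoglycan recognition protein, was 15.2-fold lower (9.64 to 23.9) and Gngt2, a G protein subunit, 4.04-fold (3.42 to 4.76). Fabp4 and Stap1 did not meet the size rule.

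Other genes were among the 12 lowest as well. The kinase gene Stk10 was 14.5-fold lower (8.84 to 23.5), Rasgrp2, an activator of integrins through the small GTPase RAP1, 7.22-fold (4.73 to 10.8) and the cofilin phosphatase gene Ssh2 8.98-fold (5.04 to 15.6). Tmc6, Cyfip2 and Sephs2 were 9.46-fold to 12.7-fold lower. Lyz1 was 27.1-fold lower (18.3 to 40.5), but 1 control cell held 88.2% of its control UMIs. The chemokine receptor gene Cxcr4, which retains leukocytes in marrow and in tissue, was 4.68-fold lower (3.20 to 6.71).

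Classical monocyte genes were mixed against these cells: 9 of 15 were higher and 0 lower (median log2 ratio 1.17). Ly6c2 was 11.8-fold higher (8.29 to 17.4), Ms4a4c 34.7-fold (14.8 to 107), Ccr2 4.54-fold (2.19 to 11.3), Chil3 4.22-fold (2.69 to 7.03) and Cd14, a co-receptor for bacterial lipopolysaccharide, 4.49-fold (3.22 to 6.47). Plac8 did not distinguish the cells, with 0.816 times the control level (0.757 to 0.881), and neither Hp (0.843, 0.571 to 1.30) nor Fn1 (0.750, 0.541 to 1.07) met the size rule. With all 71 control cells 10 of the 15 were higher and 2 lower, among the latter Fn1 (log2 ratio -2.64).

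Interferon-induced genes were higher nearly throughout. Of 32 measured type I interferon genes 29 were higher and 0 lower, and their median log2 ratio was 2.64 beside 0.33 for all genes. Isg15, a ubiquitin-like antiviral modifier, stood at 1935 CPM against 24.6 CPM, with 4 UMIs in the control cells (78.8-fold higher, 30.8 to 289). Ifit3 and Ifit1, RNA-binding antiviral proteins, had 0 control UMIs and were at least 17.6-fold and at least 14.5-fold higher, with a sum of 0 set to 3 counts over the group. Rsad2, the antiviral enzyme viperin, was 26.4-fold higher (10.3 to 97.1), Rtp4 22.2-fold (8.66 to 81.6) and Irf7, the factor that amplifies the response, 11.8-fold (7.43 to 19.9). The 3 genes that did not meet the rule were Ifitm3 (1.81-fold, 1.65 to 1.996), Stat2 (3.28-fold, 0.887 to 27.4) and Oas2 (4.45-fold, 0.775 to 178). Of 12 interferon-gamma genes 9 were higher and 0 lower, among them Gbp2 (24.4-fold, 6.74 to 202), Irgm1 (16.1-fold, 2.87 to 640) and the chemokine gene Cxcl10 (28.2-fold, 7.78 to 233). With all 71 control cells 7 of the 12 were higher, and Cxcl10 had a log2 ratio of 0.42, short of the size rule. The Isg15 level was 126 CPM in the Rhox5 cells and 481 CPM in the Cd3 cells of the same library.

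Of 16 measured chemokine genes 13 were higher and 0 lower than in the 51 control cells (median log2 ratio 3.17). Against all 71 control cells 11 of 17 were higher and 3 lower, namely Ccl2, Ccl8 and Cxcl1 (median 2.18). Ccl4, a CC chemokine that attracts monocytes and T cells, stood at 735.6 CPM with 0 control UMIs (at least 39.9-fold higher) and Ccl12, a mouse ligand of CCR2, at 413 CPM with 0 (at least 22.4-fold). Cxcl3, a neutrophil attractant, had 1 control UMI (95.1-fold higher, 17.0 to 3757). Ccl2, the main ligand of CCR2, was 15.2-fold higher (9.33 to 26.6) and Ccl7 18.5-fold (9.71 to 40.4). Against other tumor cells neither Ccl2 nor Ccl7 met the size rule, and Ccl7 was lower than in C1q-high cells. A Ccl7 UMI was seen in 46.5% of thinned C1q-low, 63.8% of Rhox5 and 29.6% of Cd3 cells. Whether its low counts in C1q-low cells are free RNA was not tested. With all 71 control cells Ccl2 took the opposite sign, with a log2 ratio of -1.60, and so did Cxcl1 (-6.50), while Ccl7 (-0.05), Cxcl2 (0.85) and Cxcl10 (0.42) no longer met the size rule. The level of Ccl2 was 98.2 CPM in the 51 control cells and 14979 CPM in the 20 with fibroblast UMIs. Pf4 had 0 control UMIs and was at least 20.4-fold higher. The 3 that did not meet the rule were Ccl5 (1.76-fold, 1.33 to 2.38), Ccl6 (1.57-fold, 1.33 to 1.86) and Cxcl1 (2.55-fold, 0.853 to 12.5).

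Inflammatory cytokines, matrix and lipid genes were also among the higher ones. Il1b, interleukin-1 beta, stood at 3222 CPM in C1q-low cells and was 11.2-fold higher (8.39 to 15.2), and its antagonist Il1rn was 9.27-fold higher (5.17 to 18.6). Tnf (0.570-fold, 0.263 to 1.47) and the NF-kappaB feedback gene Nfkbia (1.12-fold, 0.917 to 1.38) did not meet the rule. Spp1 stood at 1379 CPM with 1 control UMI (225-fold higher, 40.3 to 8875), and the elastase gene Mmp12 at 350.5 CPM with 0 (at least 19.03-fold). Spp1 was 184 CPM in the Cd3 cells and 708 CPM in the Rhox5 cells, and the share of thinned cells with a UMI, 56.1% in C1q-low cells, was 43.7% and 67.2% there. Whether the low counts of Spp1 in C1q-low cells are free RNA was not tested.

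Fc gamma receptor genes, which bind antibody-coated targets, were higher in part. Fcgr1 was 38.8-fold higher (13.3 to 188), Fcgr2b 37.0-fold (10.2 to 306) and Fcgr3 3.67-fold (2.54 to 5.49), while Fcgr4, a receptor of patrolling monocytes, was alike (1.01-fold, 0.634 to 1.69). Clec4n, the fungal sensor Dectin-2, was 43.2-fold higher (16.8 to 159) and Ms4a6d, a membrane protein of the MS4A family, 55.7-fold (19.04 to 270). In all, 11 of 21 genes of Fc, Toll-like and C-type lectin receptors were higher and 0 lower.

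Glycolysis and hypoxia genes were higher in 12 of 24 cases and lower in 0 (median log2 ratio 1.43). Against other tumor cells 3 of 28 were higher and 3 lower, and against C1q-high cells 1 of 26 was higher. Against the control cells Gapdh was 3.10-fold higher (2.63 to 3.68), Pkm, pyruvate kinase, 4.42-fold (3.49 to 5.69) and Ldha, lactate dehydrogenase, 3.35-fold (2.52 to 4.55). S100, annexin and galectin genes were higher in 13 of 16 (4 of 16 against other tumor cells and 2 of 16 against C1q-high cells), with Lgals1 at 7.002-fold (5.46 to 9.14). TGF-beta genes went the other way, with 7 of 13 lower and 2 higher (median log2 ratio -1.24): the ligand Tgfb1 was 2.36-fold lower (1.99 to 2.79; with all 71 control cells its log2 ratio of -0.75 did not meet the size rule), the receptors Tgfbr1 6.03-fold (3.53 to 9.92) and Tgfbr2 3.13-fold (1.42 to 6.19), and the inhibitor Ski 5.73-fold (3.11 to 10.1). The activin subunit gene Inhba had 0 control UMIs and was at least 9.87-fold higher, and the secreted matrix protein gene Tgfbi was 3.67-fold higher (2.94 to 4.62). Of 12 plasminogen and coagulation genes 6 were higher and 1 lower. Plaur, the urokinase receptor, was 2.48-fold higher (1.88 to 3.33). S100a10 and Anxa2, which also act in plasmin generation, were 5.35-fold (4.16 to 6.98) and 4.38-fold (3.31 to 5.91) higher. Thbd, thrombomodulin, was 6.00-fold lower (2.93 to 11.5).

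Antigen presentation, lineage factors and lipid genes differed less or in part. Of 12 MHC class II genes 6 were higher and 0 lower, with H2-Ab1 at 1.65-fold (1.46 to 1.88) and Cd74 at 0.834-fold (0.774 to 0.899), both short of the size rule. Of 15 MHC class I genes 8 were higher and 0 lower: the peptide transporter genes Tap1 and Tap2, the transporter partner Tapbp and 5 genes of the immunoproteasome and its activator. Of 18 lineage factors 3 were higher and 1, Nr4a1, lower. Spi1 (0.848-fold, 0.682 to 1.07) and Cebpb, a factor of inflammatory myeloid cells (0.676-fold, 0.624 to 0.734), did not meet the rule. Among lipid-associated macrophage genes 8 of 18 were higher and 4 lower, with the fatty acid carrier gene Fabp5 at 14.6-fold higher (9.65 to 23.4) and Apoe at 4.39-fold lower (3.84 to 5.001). Of 16 arginase and checkpoint genes 9 were higher and 1 lower, with Arg1 at 0 control UMIs (at least 11.6-fold higher) and Cd274 2.34-fold higher (1.22 to 5.15). Of 16 immediate early and stress genes, which tissue digestion can switch on, 3 were higher and 2 lower, and Fos stood at 1.73 times the control level (1.31 to 2.34), under the size rule. With all 71 control cells 2 of 17 were higher and 6 lower (Fosb, Jund, Egr1, Ier2, Mt1 and Mt2). Mt2, lower here by 1.31 on the log2 scale, had 0.60 against the control cells with at least 2 UMIs of Ace or Treml4.

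**Figure D3:**
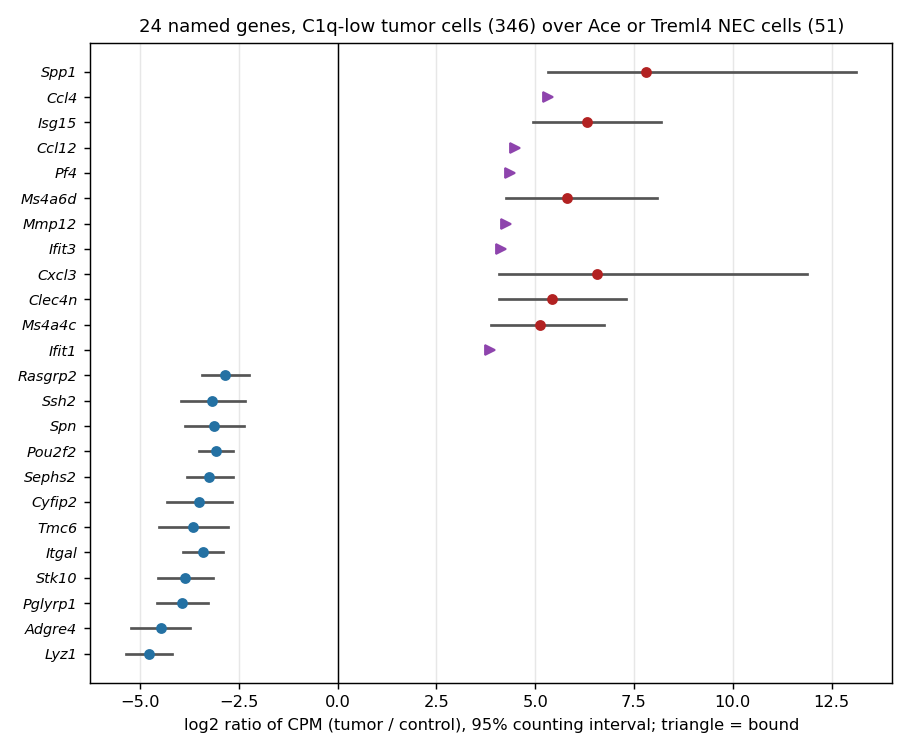
Log2 ratio of CPM in 346 C1q-low tumor cells over 51 control cells with an Ace or Treml4 UMI, for 24 genes chosen by the bounds of the ratio; lines are 95% counting intervals and triangles are lower bounds where the control sum was 0. Spp1, Isg15 and Cxcl3 lie farthest right, and Lyz1 and Adgre4 farthest left.

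Promoter windows of 4 genes are printed because these genes either mark the cells or carry the interferon signal. They are RefSeq windows of 300 bases on GRCm38.p6 around each annotated start, written 5′ to 3′ on the strand of the gene, and capitals mark matches to a core of the interferon-stimulated response element (GAAANNGAA) or to a PU.1 core (GAGGAAG), on either strand. Positions are counted from the start.
Isg15, chr4:156200769-156201068, minus strand: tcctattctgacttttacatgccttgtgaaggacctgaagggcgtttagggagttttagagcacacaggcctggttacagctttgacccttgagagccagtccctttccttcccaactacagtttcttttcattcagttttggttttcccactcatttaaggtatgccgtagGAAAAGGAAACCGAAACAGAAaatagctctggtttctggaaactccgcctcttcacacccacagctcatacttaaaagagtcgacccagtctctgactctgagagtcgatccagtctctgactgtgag
Chil3, chr3:106167515-106167814, minus strand: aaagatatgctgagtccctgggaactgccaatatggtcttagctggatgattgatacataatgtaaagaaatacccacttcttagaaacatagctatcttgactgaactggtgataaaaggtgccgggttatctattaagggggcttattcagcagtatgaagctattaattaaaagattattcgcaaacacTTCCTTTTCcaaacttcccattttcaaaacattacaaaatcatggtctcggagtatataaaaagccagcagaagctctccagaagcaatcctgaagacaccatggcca
Ly6c2, chr15:75111922-75112221, minus strand: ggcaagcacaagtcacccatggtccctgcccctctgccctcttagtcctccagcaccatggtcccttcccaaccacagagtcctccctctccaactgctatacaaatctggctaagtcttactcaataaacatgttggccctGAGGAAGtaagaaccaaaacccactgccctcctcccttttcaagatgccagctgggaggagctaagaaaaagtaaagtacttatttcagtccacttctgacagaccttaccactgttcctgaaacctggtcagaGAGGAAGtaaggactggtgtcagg
Ms4a4c, chr19:11407411-11407710, plus strand: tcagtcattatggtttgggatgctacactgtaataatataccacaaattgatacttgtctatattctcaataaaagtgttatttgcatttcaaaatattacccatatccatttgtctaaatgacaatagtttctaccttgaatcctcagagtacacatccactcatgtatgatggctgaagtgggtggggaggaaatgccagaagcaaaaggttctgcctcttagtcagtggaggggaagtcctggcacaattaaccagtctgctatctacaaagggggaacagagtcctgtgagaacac

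In Isg15 the response element core matched at 3 overlapping places, at -78, -72 and -66. Chil3 had 1 match, on the opposite strand, at -58, and Ly6c2 had the PU.1 core at -108 and at 26. Counted from a second annotated start of Ly6c2, these matches lie at -142 and -8. The Ms4a4c window had neither. Of genes searched but not printed, Plac8, Lyz2 and Ifitm6 had neither core, and Rsad2 had 1 response element core, at -119. Among 32851 promoter entries in all, 8.56% held the response element core and 13.6% the PU.1 core. Of 25 type I interferon genes with an entry, 18 held the response element core (72%), and of 12 classical monocyte genes with an entry 3 held it (25%) and 4 held the PU.1 core (33.3%). These are letter matches in short windows, and they say nothing of binding. The levels of Ms4a4c and Isg15 across the 346 thinned cells had a Spearman correlation of 0.68, given as a description since the cells share 1 library.

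Against the 654 other cells of the tumor library, 1223 of 9941 genes were higher in C1q-low cells (12.3%) and 3192 lower (32.1%), around a median log2 ratio of -0.44. The rule made this split as well, so what follows describes it. The Rhox5 cells gave 8850181 of the 13588218 UMIs on the other side. Without them 226 genes were higher, 213 of them among the 1223, and 855 were lower. In that setting 15 listed genes took the opposite sign, among them Apoe (log2 ratio -0.31), Ms4a7 (-0.29), Pf4 (-0.23) and Cd74 (-0.38). The higher genes made up 27.7% of the called genes. TMM scaling gave 1687 higher and 2536 lower, a higher share of 39.9%, and moved the median to -0.16. Equal weight for every cell gave 433 higher, 426 of them among the 1223, and a higher share of 14.9%.

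Ubd ranked first on the higher side (48.9-fold, 31.2 to 80.7), with all of its C1q-low UMIs in 1 cell that held endothelial transcripts. Chil3 stood at 492 against 42.2 CPM (11.7-fold, 10.6 to 12.9), Hp at 139.7 against 12.5 CPM (11.2-fold, 9.31 to 13.4) and Ccl6, a CC chemokine of mouse myeloid cells, at 1406 against 152 CPM (9.22-fold, 8.74 to 9.73). Without the Rhox5 cells their log2 ratios were 2.16, 2.22 and 1.87. Arg1, the arginine-degrading enzyme of suppressive myeloid cells, was 9.92-fold higher (8.62 to 11.4) but was seen in 11.6% of the cells. F10, coagulation factor X, was 7.77-fold higher (7.02 to 8.60) and Clec5a, a C-type lectin receptor, 8.50-fold (6.93 to 10.45). Dmkn (9.81-fold, 8.39 to 11.5), Ifitm6 (8.33-fold, 7.06 to 9.84), Cd177 (15.004-fold, 7.88 to 30.5) and Trim30c (12.9-fold, 7.24 to 23.95) were also among the first 12, as was Npy (12.1-fold, 7.80 to 19.4), with 68.9% of its UMIs in 1 cell.

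The rule asked for Lyz2 and macrophage genes and sent cells with Cd3 or many Rhox5 UMIs to the other side. Higher myeloid genes and lower genes of the cells left out are favored by that choice, so the list counts here are a description. All 15 measured classical monocyte genes were higher, by a median log2 ratio of 2.65, as were all 22 genes of Fc, Toll-like and C-type lectin receptors, by 2.22. Without the Rhox5 cells 1 of these 22, the lectin gene Clec4b1, had a log2 ratio of -0.10. Fcer1g and Tyrobp, the signaling adaptors of these receptors, were 4.50-fold (4.39 to 4.62) and 4.73-fold (4.6001 to 4.87) higher. Of 34 interferon genes 31 were higher and 0 lower (median 1.86), and Isg15 was 4.33-fold higher (4.17 to 4.49). Of 17 arginase and checkpoint genes 15 were higher and 0 lower, among them the inhibitory receptor gene Lilrb4a (5.68-fold, 5.39 to 5.99) and Cd274, which encodes PD-L1 (3.47-fold, 3.03 to 3.98). On the lower side Aebp1 was 87.4-fold lower (44.3 to 203), Cald1, caldesmon, 69.5-fold (42.7 to 122) and Serpinh1, a collagen chaperone, 50.4-fold (34.1 to 78.0), and Sdc2 had 0 UMIs (at least 40.8-fold lower). Of 8 fibroblast genes all were lower (median -4.09), and so were 10 of 11 T and natural killer cell genes (median -4.38) and 5 of 11 dendritic cell genes. Of 18 proliferation genes 14 were lower and 0 higher (median -3.95), and Mki67 had 1 UMI in all 346 cells. Without the Rhox5 cells Mrc1, 1 of the 15 higher arginase and checkpoint genes, had a log2 ratio of -0.06. The list counts of this comparison were not repeated without those cells.

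**Figure D4:**
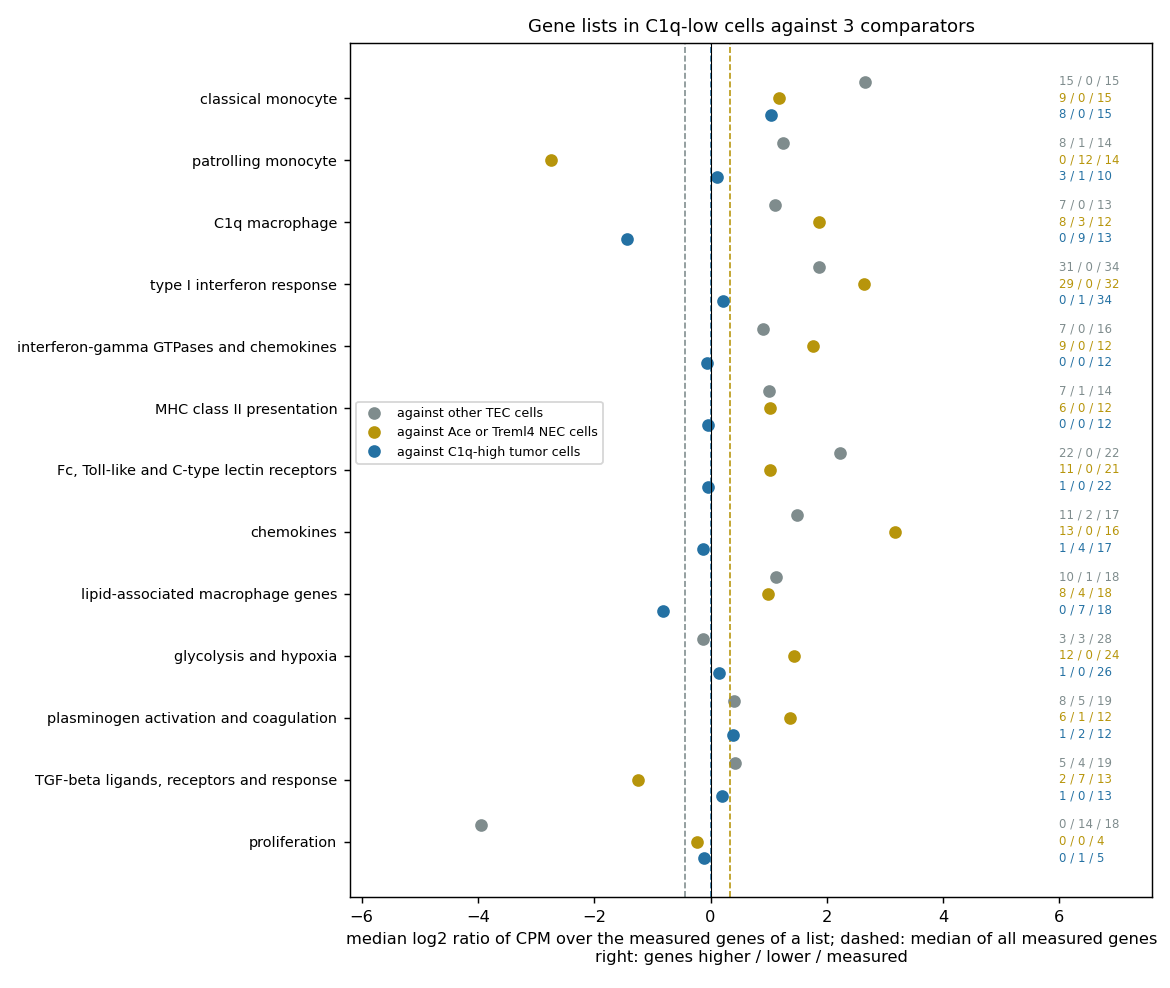
Median log2 ratio of CPM over the measured genes of 13 lists in C1q-low cells against 3 comparators, with the genes higher, lower and measured at the right; dashed lines are the medians of all measured genes. Patrolling monocyte genes lie at -2.75 against the control cells, and C1q macrophage genes at -1.44 against C1q-high cells.

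Within the C1q-low cells the genes with the highest variance over mean in thinned cells were a mix of abundant genes and genes that few cells hold. Actb had the highest Fano factor (116; lowest 4, median 43, highest 543 UMIs), followed by the ferritin genes Fth1 (101) and, after Ubd, Ftl1 (68.8). Ccl7, a monocyte attractant, had a median of 0 and a highest value of 218 UMIs, and Slpi, a protease inhibitor, a median of 1 and a highest value of 254. Spp1 ranged from 0 to 182 with a median of 1, H2-Ab1 from 0 to 172 with a median of 2, Cxcl3 from 0 to 127 with a median of 0 and Arg1 from 0 to 88 with a median of 0. S100a8 and S100a9 completed the 12. Most of these genes were thus low in the typical cell and very high in some.

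Thinned Ly6c2 gave a first axis. In 36 cells it was 0, in 100 it was 1 to 4 UMIs and in 210 it was 5 or more (10.4%, 28.9% and 60.7%), with median depths of 9216, 7442 and 7453.5 UMIs. These are ranges of 1 gene and not cell types. Between the top range and the cells at 0, 203 of 3779 genes were higher (5.37%) and 110 lower (2.91%), Ly6c2 left out. Plac8 was 6.87-fold higher (6.05 to 7.82), Chil3 11.3-fold (7.31 to 18.6) and Hp 10.54-fold (5.06 to 26.4). The interferon genes Isg15 (3.89-fold, 3.41 to 4.46), Rsad2 (4.62-fold, 3.61 to 6.01), Ifit2 (7.501-fold, 4.03 to 15.8) and Pyhin1 (4.71-fold, 3.52 to 6.45) were higher as well. On the lower side stood Arg1 (9.05-fold, 7.49 to 10.97, with 1 cell holding 40.6% of its UMIs in the range at 0), Trem2 (6.04-fold, 4.56 to 8.02), Mmp12 (5.56-fold, 4.55 to 6.80) and Cd36, a fatty acid receptor (4.21-fold, 3.16 to 5.61). Gpnmb was 9.79-fold lower (7.90 to 12.2), with 70.5% of its UMIs in the range at 0 from 1 cell.

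The summed interferon genes stood at 8744, 11386 and 21751 CPM from the lowest to the highest Ly6c2 range, and the 14 classical monocyte genes besides Ly6c2 and Lyz2 at 3374, 6210.3 and 10550.4 CPM. Lipid-associated macrophage genes went down, at 21307, 17152 and 14661 CPM, and MHC class II genes stood at 18862, 18802 and 11157 CPM. Cells with more Ly6c2 thus held more of the monocyte and interferon transcripts and fewer of the MHC class II and lipid-associated ones. Across the 346 cells the Spearman correlation of Ly6c2 was 0.52 with Ms4a4c, 0.49 with Plac8, 0.44 with Isg15 and -0.29 with H2-Ab1.

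H2-Ab1, the beta chain of an MHC class II molecule, gave a second axis. It was 0 in 98 thinned cells, 1 to 12 in 160 and 13 or more in 88. Between the top range and the cells at 0, 65 of 3161 genes were higher (2.06%) and 98 lower (3.1%). H2-Eb1 was 146-fold higher (102 to 217), H2-Aa 81.4-fold (64.1 to 105), the invariant chain gene Cd74 19.2-fold (17.3 to 21.2) and the peptide-loading gene H2-DMb1 14.3-fold (10.9 to 19.3). Beyond this pathway, Mgl2, a lectin of dendritic cells and macrophages, was 64.1-fold higher (11.1 to 2570) with 1 UMI in the cells at 0, Il1r2, a decoy receptor for interleukin-1, was 6.21-fold higher (4.67 to 8.38), Itgax, the CD11c integrin, 5.31-fold (3.15 to 9.51) and the placental growth factor gene Pgf 5.57-fold (3.20 to 10.4). Hp (11.5-fold, 7.18 to 19.5), Chil3 (6.47-fold, 5.24 to 8.07) and Spp1 (3.83-fold, 3.42 to 4.29) were lower. Classical monocyte genes summed to 13521, 11558 and 6458 CPM over the ranges, and the other 14 MHC class II genes to 4071, 6450.05 and 27973 CPM. Dendritic cell markers summed to 238, 380.2 and 426 CPM over the ranges, and their part in this split was not tested. The correlation of H2-Ab1 with Cd74 over cells was 0.84.

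**Figure D5:**
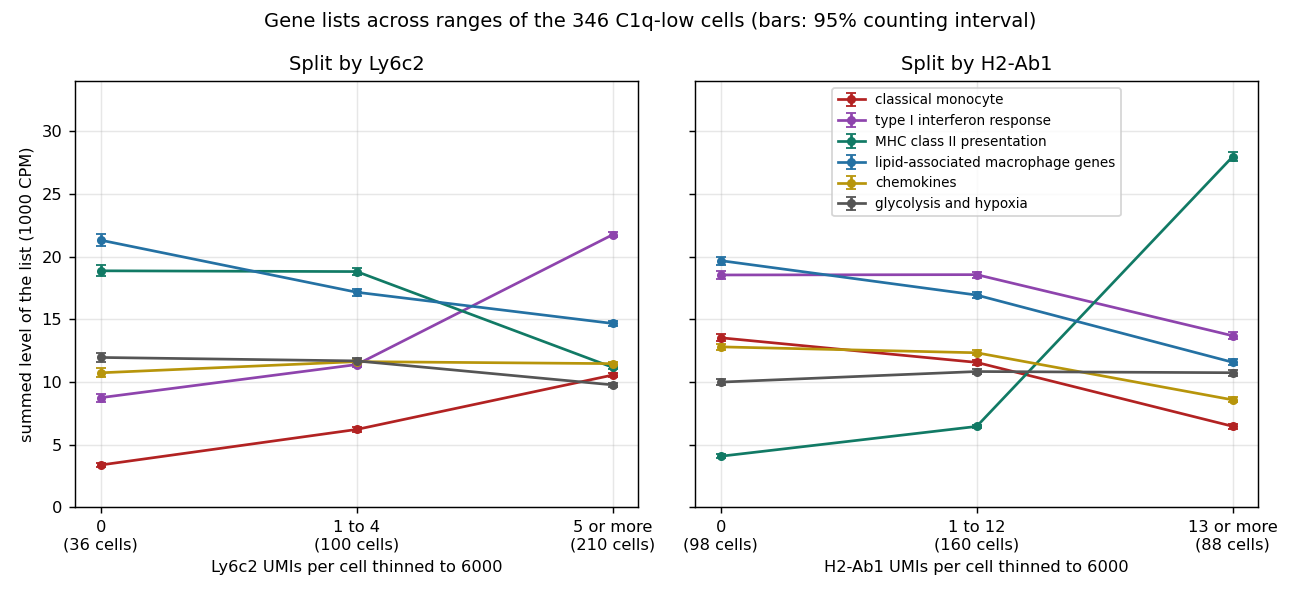
Summed level of 6 gene lists in units of 1000 CPM across ranges of the 346 C1q-low cells, split by thinned Ly6c2 UMIs (left) and thinned H2-Ab1 UMIs (right); bars are 95% counting intervals, and the gene that sets the ranges and the genes of the rule are left out. Interferon genes climb from 8744 to 21751 CPM with Ly6c2, and MHC class II genes from 4071 to 27973 CPM with H2-Ab1.

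Arg1 marked a minority. The 40 cells with an Arg1 UMI had 106 of 4584 genes higher (2.31%) and 199 lower (4.34%) than the other 306 cells. Egln3, a hypoxia-induced prolyl hydroxylase, was 7.28-fold higher (4.52 to 11.7), the podoplanin gene Pdpn 5.62-fold (4.43 to 7.12), Pf4 4.94-fold (4.37 to 5.59), Mmp12 4.33-fold (3.81 to 4.93), Cxcl3 4.02-fold (3.63 to 4.44) and Spp1 3.16-fold (2.96 to 3.39). Ifit2 (7.24-fold, 3.64 to 16.9), Ifit3 (5.44-fold, 3.63 to 8.53), Cxcl10 (5.36-fold, 3.63 to 8.25) and Ly6c2 (3.29-fold, 2.91 to 3.73) were lower. Glycolysis and hypoxia genes summed to 17263 CPM in the cells with Arg1 and 9608 CPM in the others, and interferon genes to 10998 and 18103 CPM.

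An Ace or Treml4 UMI was found in 59 of the C1q-low cells (17.1%), whose median depth was 8360 UMIs against 7479 in the other 287. In thinned cells a UMI of Ace was seen in 7.51% of C1q-low, 1.13% of Rhox5 and 2.82% of Cd3 cells, and one of Treml4 in 10.4%, 1.13% and 2.82%. A single UMI does not show that a cell makes the transcript. Of 4585 genes 91 were higher there (1.98%) and 139 lower (3.03%). The highest-ranked genes were Ubd, Igfbp7, S100a9, Fscn1 (11.01-fold, 6.68 to 18.7), Serpinb6b and Retnlg, several of them genes of the cells that stand apart. Lower in the ranking, Pou2f2 was 4.38-fold higher (3.10 to 6.20), Gngt2 3.28-fold (2.84 to 3.79), the factor gene Spic 4.37-fold (3.02 to 6.33) and Ccl5 3.58-fold (3.24 to 3.96). Arg1 (12.2-fold, 6.79 to 24.6), Ccl7 (5.96-fold, 4.91 to 7.30), Spp1 (5.18-fold, 4.43 to 6.09) and Ccl2 (3.13-fold, 2.78 to 3.55) were lower. The 16 other patrolling monocyte genes summed to 1649 against 624 CPM. Markers of other cell types moved with this split, at 2183 against 673 CPM for neutrophils, 619.5 against 295 CPM for dendritic cells and 189 against 54.5 CPM for endothelial cells, and their part in it was not tested.

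Finally, 16 of the 346 cells stood apart by markers of another cell type. The limits were 20 or more UMIs of endothelial or of mature dendritic genes, and 40 or more of neutrophil genes. In 1 cell of 16880 UMIs there were 20 UMIs of Egfl7, 10 of Plvap, 8 of Cdh5 and 50 of Igfbp7, all endothelial transcripts, beside 23 of Lyz2, 216 of Ubd, 108 of the interferon-induced chemokine gene Cxcl9 and 0 of Csf1r. In 7 cells, picked by genes of mature, migratory dendritic cells, lay 71.6% of all C1q-low UMIs of the chemokine receptor gene Ccr7, 73.8% of those of Fscn1, an actin-bundling protein, and 88% of those of the chemokine gene Ccl22. In 8 cells, picked by neutrophil genes, lay 63.3% of the UMIs of S100a8, 80.9% of those of S100a9 and 77.6% of those of Retnlg. A limit of 20 neutrophil UMIs would pick 16 C1q-low cells in place of these 8. In 25 C1q-low cells there were 2 or more UMIs over Retnlg, Csf3r, Cxcr2 and Mmp9. Without the 16 cells the levels in C1q-low cells were 147 CPM for S100a8, 41.5 CPM for S100a9, 10.7 CPM for Ccr7 and 61.5 CPM for Cxcl9, and Ly6c2 stood at 2297 CPM. These cells were picked by such genes, so their high shares of them are a description. They held 3.15% of the Ly6c2 UMIs.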

How the data were processed

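Single-cell RNA of live ZSGreen-positive cells was measured in 1 NEC and 1 TEC library. Per the submitters' processing notes the authors used Cell Ranger 2.0.2, STAR 2.5.1b, Seurat and mm10. Their settings and any filter on cells are not stated there. What was deposited is a table of raw UMI counts per gene and cell (13774 genes, 2806 cells, 16444540 UMIs in TEC, 5228289 in NEC). Columns named "tumor" were taken as TEC and columns named "control" as NEC; the second match rests on that word alone. All 13156 genes with counts in TEC and 11989 of 12004 in NEC were found in at least 5 cells, and 11386 genes had counts in both. No cell was removed. Scrublet (scanpy 1.11.5) called 3 TEC and 9 NEC cells, none of them among the 346. It marked too few cells to count as a working doublet check.

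UMIs were summed over the cells of a group and scaled to CPM. Intervals are exact: Poisson for CPM, binomial for shares and Clopper-Pearson, conditional on the gene's total, for ratios (scipy 1.17.1, 95%). A sum of 0 was set to 3 counts over the group. With 1 library per group no p-value was computed. For values per cell, tumor cells were thinned once to 6000 UMIs with a fixed seed. For each comparison 24 genes were named, 12 ranked by the highest lower end of the interval and 12 by the lowest upper end, without mitochondrial, ribosomal, hemoglobin and immunoglobulin genes and genes of the rule, and for lists up to 5 of the most abundant members and any of the first 12. Other list genes and those of the range splits were named for their role or after their values were seen. The members, the gene lists and the ranges were chosen with earlier results of these data known. The calculation was tested on simulated data. Alternatives were TMM scaling, the mean of per-cell CPM, minimums of 20 and 200 UMIs, other limits of the rule, thinning, and leaving out Rhox5 cells, fibroblast-gene control cells or the 16 cells that stand apart. The last pair was added after the data were seen.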

Additional observations from a re-analysis of the deposited data

How the results depend on the processing

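The rule took 310 to 371 cells under the other limits tried, against 346. Equal weight for every cell (the mean of per-cell CPM) gave 433 higher genes against other tumor cells, 1415 against all Ace or Treml4 control cells and 1416 against those without fibroblast UMIs. A minimum of 20 UMIs gave 779 and 759 lower genes against these control groups and 213 against C1q-high cells. A minimum of 200 UMIs gave 1799 lower genes against other tumor cells, 596 higher and 120 lower against all control cells, 103 lower against those without fibroblast UMIs, and 34 higher and 25 lower against C1q-high cells; fewer genes are measured at this minimum. Leaving out cells with 5 or more Rhox5 UMIs gave 226 higher and 855 lower genes against other tumor cells. Thinning every cell to 1000 UMIs gave 348 higher and 100 lower genes against all control cells, and 300 higher and 82 lower against those without fibroblast UMIs, at a lower depth. The log2 ratio of Ubd against other tumor cells reversed to -4.00 when the rule was applied to thinned cells; all its UMIs lie in 1 C1q-low cell. Against other tumor cells, 2 listed genes called higher turned round with equal weight for cells (Cd74, -0.15, and Pf4, -0.21) and S100a9 did without the 16 cells that stand apart (-0.70). Of listed genes called lower against all 71 control cells, Cxcl1 (-6.50 to 1.35), Timp2 (-3.39 to 0.94), Anxa3 (-2.98 to 1.28), Serpinb6a (-2.75 to 1.596), Procr (-1.96 to 0.85) and Ccl2 (-1.60 to 3.92) took the opposite sign without the fibroblast-gene cells. Tlr2, called higher there, did at 1000 UMIs (1.07 to -0.06), Mt2 with control cells of at least 2 Ace or Treml4 UMIs (-1.31 to 0.60), and Procr against C1q-high cells with the rule on thinned cells (-1.22 to 0.52). TMM scaling turned round no called gene. No paired analysis was possible because each group has 1 library. Counting depth in the control cells, 162899 UMIs over 51 cells, limits the ratios of genes with few UMIs there.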
